A study of Mus musculus with 6 samples.

Results

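Hif1a, which encodes the oxygen-regulated subunit of hypoxia-inducible factor 1 (HIF1), and 9 of the genes that HIF1 is known to act on were followed in mouse dendritic cells derived from marrow. The 10 genes are Hif1a, Vegfa, Egln1, Egln3, Hilpda, Bnip3, Adm, Ndrg1, P4ha1 and Ak4, out of 23398 genes in the deposited table. They were taken by name, and were in part chosen by their FPKM values, in which nanoparticle library 1 stood apart from nanoparticle libraries 2 and 3. The values of that library against the other nanoparticle libraries are therefore given as a description, with no test. Marrow-derived dendritic cells (BMDC) were kept in DMEM with serum and antibiotics and exposed for 12 hours to calcium hydroxide (Ca(OH)2) nanoparticles (3 libraries) or to vehicle (3 libraries). The labels give no mouse strain, age or sex, no particle dose, no growth factor and no oxygen tension. They do not say whether the replicates came from separate mice or cultures, so p-values measure the spread between these libraries, which may be technical. The design compares nanoparticle-treated with vehicle-treated cells.

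HIF1 is a pair of proteins, one of which, HIF-1 alpha, is made all the time and destroyed while oxygen is present. The prolyl hydroxylases encoded by the Egln genes mark HIF-1 alpha for that destruction. When oxygen is short the protein survives and switches on genes for blood vessel growth, glucose use and removal of mitochondria. In cells of the innate immune system, signals from Toll-like receptors are also known to raise Hif1a transcription with oxygen present. Transcript levels do not report on HIF-1 alpha protein, which was not measured.

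The 6 libraries held 17303785 to 21995666 reads, recovered from the deposited FPKM (fragments per kilobase of exon, relative to library size). The share of mitochondrially encoded reads was 2.34% to 2.54% in vehicle and 2.20% to 2.52% in nanoparticle libraries, with 2.52% in nanoparticle library 1. Reads of vehicle libraries differed from each other with a chi-square per degree of freedom of 2.87 to 5.35, nanoparticle libraries 2 and 3 with 11.8, and nanoparticle library 1 from these with 173 and 231. No label gives a reason to leave library 1 out, so results are given with and without it. Of 8 dendritic cell markers, Flt3 was under 1 FPKM in every library. The other 7 were present in vehicle, Itgax (the integrin CD11c) at 442 to 456 FPKM. Cd209a fell to 0, 0.0763 and 0 FPKM in nanoparticle libraries 1 to 3, and Clec10a to 0.507, 0.813 and 1.04 FPKM. Itgax was at 248, 398 and 375 FPKM in these libraries (limma adjusted p = 0.163). Zbtb46 fell from 3.66, 4.10 and 4.15 FPKM to 1.73, 2.76 and 2.42 FPKM (limma adjusted p = 0.019). The summed FPKM of the dendritic cell markers was 6100.1 to 6538 in vehicle and 3372, 7054 and 7711 in nanoparticle libraries 1 to 3. That sum is mostly Cd74, H2-Aa and H2-Ab1, which were below vehicle in library 1 and above it in libraries 2 and 3. The 7 macrophage markers summed to 14761 to 15985 FPKM in vehicle and to 12144, 16362 and 17775 FPKM in nanoparticle libraries 1 to 3, a sum that is mostly Lyz2, and Cd163 was under 1 FPKM throughout. Other macrophage markers went different ways: Adgre1 was at 62.9 to 68.3 FPKM in vehicle and rose to 276, 141 and 132 FPKM in nanoparticle libraries 1 to 3 (limma adjusted p = 0.012). Fcgr1 (adjusted p = 0.0056) and Cd68 (adjusted p = 0.024) also rose, and both were highest in library 1. Mrc1 was at 51.8 to 62.8 FPKM in vehicle and fell to 3.10, 10.6 and 9.57 FPKM (adjusted p = 0.0027). The 8 neutrophil markers summed to 34.7 to 39.0 FPKM in vehicle and to 50.8, 110.4 and 125 FPKM in nanoparticle libraries 1 to 3, with Mpo, Elane, Ltf and Ly6g under 1 FPKM in all. That sum is mostly S100a8, at 50.1, 90.3 and 109 FPKM in nanoparticle libraries 1 to 3. S100a9 was at 0.962 to 1.65 FPKM in vehicle and at 0.352, 13.2 and 10.2 FPKM in these libraries. Ngp was at 0.246 to 0.901 FPKM and at 0.0501, 4.30 and 3.23 FPKM. Camp was at 0 to 0.190 FPKM and at 0.242, 1.83 and 1.99 FPKM. T and B cell, erythroid and mast cell markers summed to less than 6 FPKM in each library. The 3 stromal markers in the table summed to 0 to 0.0553 FPKM in vehicle and to 1.30, 1.03 and 0.834 FPKM in nanoparticle libraries 1 to 3, nearly all of it Pdgfrb. The part of cell makeup in the results below was not tested, and in such bulk libraries fewer cells of a type and less RNA per cell cannot be told apart.

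In vehicle cells, levels per exon length (FPKM) could be ordered as follows. P4ha1 was highest at 27.0 ± 1.02 FPKM (SD, n = 3), followed by Hif1a at 20.8 ± 0.541, Hilpda at 14.9 ± 0.451 and Egln1 at 11.9 ± 0.153 FPKM, and none of these overlapped its neighbour in the order. Bnip3 (6.85 ± 0.441 FPKM), Vegfa (6.77 ± 0.948 FPKM) and Ndrg1 (5.83 ± 0.0351 FPKM) came next, and the vehicle libraries of Vegfa overlapped those of both others. Ak4 was at 1.30 ± 0.148 FPKM and Egln3 at 0.437 ± 0.165 FPKM. Adm was barely detected, with 2, 1 and 1 reads. All 10 genes entered the test, which was limited to genes reaching 1 FPKM in 3 or more libraries. Egln3 and Adm did so through the nanoparticle libraries alone, so these genes had to differ to be tested.

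**Figure D1:**
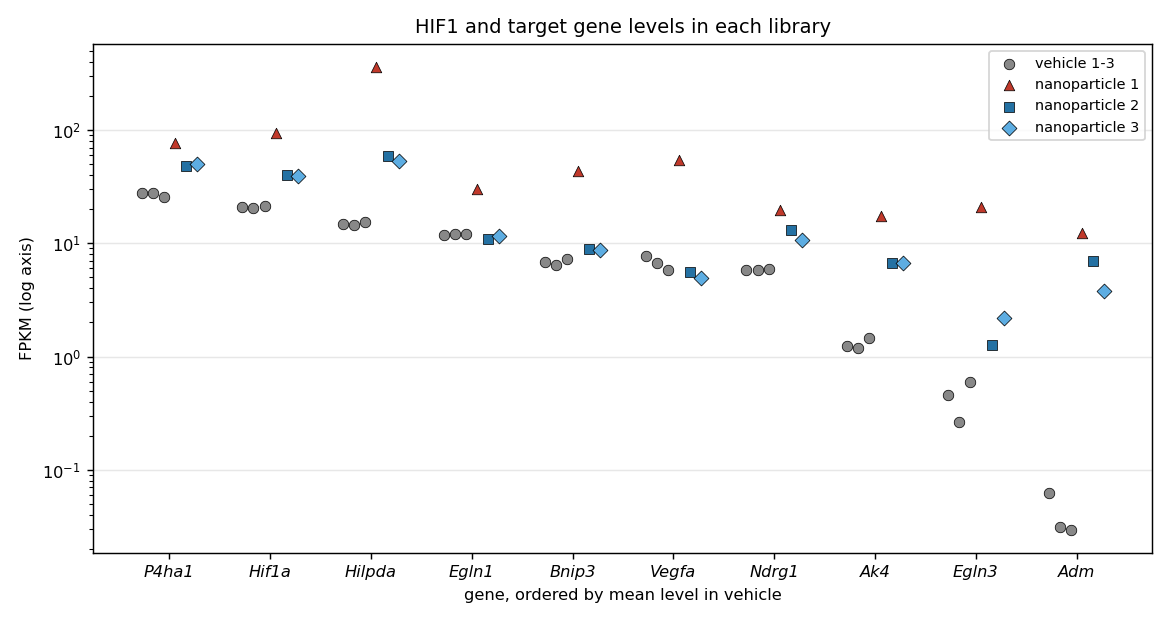
FPKM (log axis) of the 10 genes in each of the 6 libraries, ordered by mean vehicle level; grey circles are vehicle libraries 1 to 3, and each nanoparticle library has its own symbol. Nanoparticle library 1 (red triangles) is the highest of the 6 libraries for all 10 genes, and in Egln1 and Vegfa nanoparticle libraries 2 and 3 do not lie above the vehicle libraries.

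With nanoparticles, 6 of the 10 genes rose at a Benjamini-Hochberg adjusted p under 0.05 in limma's moderated test on log2(FPKM + 1), namely Adm, Hilpda, Ak4, Hif1a, Ndrg1 and P4ha1, and 0 fell. Over all 10682 tested genes, 17.0% were called higher and 16.2% lower. Without Egln3 and Adm, 5 of the other 8 genes rose. The median log2 change of the 10 genes was 1.22, against 0.00 over all tested genes. Every nanoparticle library lay above every vehicle library in 8 of the 10 genes, all but Vegfa and Egln1. Such a separation was seen in 25.9% of all tested genes. Egln3 and Adm are among these 8, and their separation was fixed in advance by the filter. Both also enter the median of the 10 genes. Library 1, by whose excess the genes were partly chosen, is in this fit and raises the fitted changes and the median of 1.22. The distance of the 10 genes from all tested genes follows in part from that choice. Directions are relative to the scale between libraries that the deposited values carry. When recovered totals set the scale instead, the median of all tested genes was -0.29, the median of the 10 genes was 0.90, and Hif1a no longer passed (log2 change 0.96, limma adjusted p = 0.065).

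Without nanoparticle library 1, in which the changes of these genes were largest, 8 of the 10 genes rose, 1 fell (Vegfa) and Egln1 did not pass (limma on the 5 remaining libraries). Egln3 and Adm are again among these 8. Both were under 1 FPKM in every vehicle library and above it in every remaining nanoparticle library. The filter therefore fixed their direction in this fit too, which limits the comparison of the 8 with the shares over all tested genes. In that fit 34.3% of all tested genes were called higher and 30.5% lower. The 10 genes then had a median log2 change of 0.90, against 0.02 over all genes. Egln3 (higher), Bnip3 (higher) and Vegfa (lower) passed in that fit and not in the 6-library fit. With library weights, which give library 1 little weight, Egln3 and Bnip3 also passed (limma adjusted p = 0.011 and 0.041) and Vegfa did not (adjusted p = 0.387). Both the nanoparticle mean and the residual spread of the 6-library fit contain the difference of library 1 by which the genes were partly chosen. Through the mean it raises the fitted changes, and through the spread it widens their intervals. The calls of both fits are read with that in mind.

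**Figure D2:**
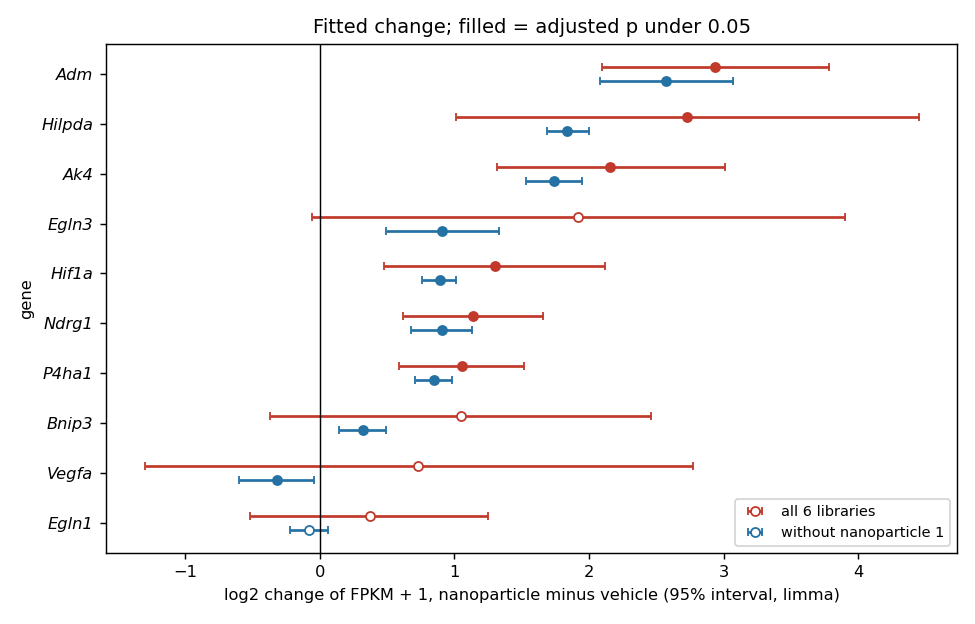
Fitted log2 change of FPKM + 1, nanoparticle minus vehicle, for the 10 genes with all 6 libraries (red) and without nanoparticle library 1 (blue); bars are 95% intervals from limma and filled points passed an adjusted p of 0.05. Intervals are narrower without library 1, and Vegfa changes from 0.73 (not past the threshold) to -0.32.

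Since the genes share a transcription factor, the 250 bases before their RefSeq transcript starts (GRCm38.p6) were searched on both strands for the core letters of the hypoxia response element, ACGTG and GCGTG. Matches on opposite strands can overlap, as in CACGTG. The sequence table matched 9 of the 10 genes by symbol, in 14 windows, and 12 windows held a match. A match was found in 38.6% of all 32851 windows listed, and in 56.6% of the 10119 windows of tested genes. By gene, 9 of the 9 matched genes had a match in at least 1 window, against 41.5% of all genes and 62.4% of the tested genes. For Vegfa and Hilpda the window nearest the annotated gene start held no match. Their matches lie in the window of another start, further inside the gene. A match is a description of the letters and not a site of binding. The windows of 4 genes are shown, P4ha1 and Adm because they rose in the 6-library fit, and Egln3 and Bnip3 because they were called higher without library 1 but not in the 6-library fit. Letters in capitals are matches to either motif on either strand, and each sequence runs 5′ to 3′ on the gene's own strand up to the base before the start.
P4ha1: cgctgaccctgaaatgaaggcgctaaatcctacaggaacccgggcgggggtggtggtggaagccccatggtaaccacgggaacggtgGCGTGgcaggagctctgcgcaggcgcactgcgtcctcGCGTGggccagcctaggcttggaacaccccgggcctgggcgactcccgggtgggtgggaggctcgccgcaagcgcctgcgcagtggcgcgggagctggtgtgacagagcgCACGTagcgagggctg
Adm: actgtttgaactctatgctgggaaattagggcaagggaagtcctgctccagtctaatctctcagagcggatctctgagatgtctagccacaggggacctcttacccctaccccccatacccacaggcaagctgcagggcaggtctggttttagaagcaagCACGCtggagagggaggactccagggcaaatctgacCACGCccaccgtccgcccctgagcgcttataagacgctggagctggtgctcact
Egln3: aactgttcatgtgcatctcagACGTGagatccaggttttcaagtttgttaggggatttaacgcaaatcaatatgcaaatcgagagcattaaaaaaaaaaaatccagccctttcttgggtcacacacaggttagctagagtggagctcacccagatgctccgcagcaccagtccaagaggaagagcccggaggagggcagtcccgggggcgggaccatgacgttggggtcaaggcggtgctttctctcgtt
Bnip3: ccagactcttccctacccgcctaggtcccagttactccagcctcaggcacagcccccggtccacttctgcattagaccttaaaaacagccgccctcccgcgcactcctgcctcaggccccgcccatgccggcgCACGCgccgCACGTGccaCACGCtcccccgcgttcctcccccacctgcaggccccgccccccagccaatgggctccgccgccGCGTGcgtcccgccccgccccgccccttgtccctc
They lie at chr10:59323046-59323295 (plus strand, P4ha1), chr7:110627407-110627656 (plus strand, Adm), chr12:54203875-54204124 (minus strand, Egln3) and chr7:138909507-138909756 (minus strand, Bnip3). P4ha1 has 3 matches, Adm 2, Egln3 1 and Bnip3 5. The single match of Egln3 begins 229 bases before the start, while those of P4ha1 begin 163, 126 and 16 bases before it. The number of matches did not order the genes by their change: Bnip3, with the most, had a fitted log2 change of 1.05, and Adm, with 2, of 2.94.

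Hif1a (ENSMUSG00000021109, protein coding, chr12:73901375-73947530, plus strand) encodes the regulated subunit itself. It was at 20.8, 20.3 and 21.4 FPKM in vehicle libraries 1 to 3 and at 94.2, 39.7 and 38.9 FPKM in nanoparticle libraries 1 to 3. All nanoparticle libraries were above all vehicle libraries, library 1 more than 2-fold above the others. The log2 change was 1.30 (SE 0.340, limma adjusted p = 0.029), and 0.89 (SE 0.0532, adjusted p = 2.6e-05) without library 1. Its call is not firm: it was lost when any 1 vehicle library was left out (adjusted p = 0.086 to 0.093) and with no filter on low values (adjusted p = 0.067).

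Both prolyl hydroxylase genes of the set oppose HIF1 and are also among its known targets, and they differed in pattern. Egln1 (ENSMUSG00000031987, protein coding, chr8:124908587-124949324, minus strand), which encodes the main hydroxylase PHD2, was at 11.8, 12.0 and 12.1 FPKM in vehicle and 29.9, 11.0 and 11.5 FPKM in nanoparticle libraries 1 to 3. Library 1 was 2.51 times the vehicle mean, while libraries 2 and 3 were at 0.921 and 0.961 times that mean, just below each vehicle library. The log2 change was 0.37 (95% interval -0.52 to 1.25, limma adjusted p = 0.489), and -0.08 (interval -0.22 to 0.06, adjusted p = 0.259) without library 1. Egln3 (ENSMUSG00000035105, protein coding, chr12:54178981-54203860, minus strand), which encodes PHD3, was at 0.453, 0.265 and 0.594 FPKM in vehicle and 21.0, 1.27 and 2.18 FPKM in nanoparticle libraries 1 to 3. These values rest on 24, 14 and 33 reads in vehicle and 912, 56 and 112 reads in nanoparticle libraries. The groups did not overlap, but library 1, at 48.0 times the vehicle mean, was far above libraries 2 and 3, at 2.91 and 4.99 times. The log2 change of 1.92 (SE 0.819) did not pass in the 6-library fit (limma adjusted p = 0.122). Without library 1 it was 0.91 (SE 0.176, adjusted p = 0.0042).

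Of the secreted factors, Vegfa was high in nanoparticle library 1 alone, and Adm was high in all nanoparticle libraries. Vegfa (ENSMUSG00000023951, protein coding, chr17:46016993-46032369, minus strand) encodes the main growth factor of blood vessels. It was at 7.73, 6.76 and 5.83 FPKM in vehicle and at 54.0, 5.54 and 4.89 FPKM in nanoparticle libraries 1 to 3. Libraries 2 and 3 lay below every vehicle library and library 1 was 7.97 times the vehicle mean. The log2 change of 0.73 had an interval of -1.30 to 2.77 (limma adjusted p = 0.551). Without library 1 it was -0.32 (interval -0.60 to -0.04, adjusted p = 0.049), which is the reverse direction and at the edge of the threshold. Adm (ENSMUSG00000030790, protein coding, chr7:110627661-110629820, plus strand) encodes adrenomedullin, a peptide that widens blood vessels. It rose from 2, 1 and 1 reads with vehicle, each below a floor of 3 reads, to 325, 187 and 119 reads (12.3, 6.98 and 3.81 FPKM) in nanoparticle libraries 1 to 3. Against the 4 pooled vehicle reads the ratio was 302 (95% counting interval 117 to 1114) in library 1, 171 (65.8 to 635) in library 2 and 93.6 (35.6 to 349) in library 3. These exact binomial intervals hold counting error alone, because copies made by PCR were not marked and reads are not independent molecules. The log2 change on the FPKM + 1 scale was 2.94 (SE 0.347, limma adjusted p = 0.0014), which understates the ratio of so low a gene, and 2.57 (adjusted p = 8.7e-05) without library 1.

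Genes of mitochondria and energy metabolism were Bnip3 and Ak4. Bnip3 (ENSMUSG00000078566, protein coding, chr7:138890836-138909519, minus strand) encodes a mitochondrial outer membrane protein that takes part in the removal of mitochondria. It was at 6.85, 6.41 and 7.30 FPKM in vehicle and 43.4, 8.83 and 8.73 FPKM in nanoparticle libraries 1 to 3. The groups did not overlap, yet libraries 2 and 3 were only 1.29 and 1.27 times the vehicle mean, where library 1 was 6.33 times. The log2 change was 1.05 (SE 0.585, limma adjusted p = 0.223), and 0.32 (SE 0.0725, adjusted p = 0.0084) without library 1. Ak4 (ENSMUSG00000028527, protein coding, chr4:101419277-101466995, plus strand) encodes an adenylate kinase of the mitochondrial matrix. It rose from 1.24, 1.18 and 1.46 FPKM to 17.5, 6.65 and 6.70 FPKM in nanoparticle libraries 1 to 3. Libraries 2 and 3 were alike, at 5.13 and 5.17 times the vehicle mean, and library 1 was at 13.5 times. The log2 change was 2.16 (SE 0.348, limma adjusted p = 0.0046), and 1.74 (adjusted p = 1.3e-05) without library 1.

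Hilpda, P4ha1 and Ndrg1 act in lipid storage, collagen and cell stress. Hilpda (ENSMUSG00000043421, protein coding, chr6:29272488-29275446, plus strand) encodes a protein of lipid droplets that holds back the breakdown of stored fat. It was at 14.7, 14.5 and 15.4 FPKM in vehicle and 359, 58.7 and 53.4 FPKM in nanoparticle libraries 1 to 3. Library 1 was 24.1 times the vehicle mean, and libraries 2 and 3 were 3.95 and 3.59 times it. The log2 change was 2.73 (SE 0.711, limma adjusted p = 0.028), and 1.84 (SE 0.0638, adjusted p = 2.8e-06) without library 1. Like that of Hif1a, the call was lost when any 1 vehicle library was left out (adjusted p = 0.084 to 0.087) and with no filter on low values (adjusted p = 0.069). P4ha1 (ENSMUSG00000019916, protein coding, chr10:59323296-59373304, plus strand) encodes a catalytic subunit of the enzyme that hydroxylates proline in collagen. It rose from 27.6, 27.6 and 25.8 FPKM to 77.2, 48.4 and 50.3 FPKM (log2 change 1.06, SE 0.193, limma adjusted p = 0.0074), and by 0.85 (adjusted p = 4.2e-05) without library 1. Ndrg1 (ENSMUSG00000005125, protein coding, chr15:66929318-66969640, minus strand) encodes a stress-responsive cytoplasmic protein. It rose from 5.83, 5.80 and 5.87 FPKM to 19.8, 13.1 and 10.6 FPKM (log2 change 1.14, SE 0.214, limma adjusted p = 0.0083), and by 0.91 (adjusted p = 2.6e-04) without library 1. In P4ha1 and Ndrg1 library 1 was less than 2-fold above libraries 2 and 3 on the log2(FPKM + 1) scale, the smallest such differences of the 10 genes.

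The difference of nanoparticle library 1 from the mean of libraries 2 and 3, by which the genes were partly chosen, ran from 0.64 in P4ha1 to 3.15 in Vegfa on the log2(FPKM + 1) scale. Ndrg1 was at 0.70, Adm at 1.10, Hif1a at 1.24, Ak4 at 1.27, Egln1 at 1.34, Bnip3 at 2.18, Hilpda at 2.66 and Egln3 at 3.03. The difference was more than 1, that is over 2-fold, in 8 of the 10 genes, where 4.48% of all tested genes had so large a difference above and 7.28% below. Library 1 was the highest of all 6 libraries in all 10 genes and in 29.2% of all tested genes. Among the tested genes, the difference of P4ha1 stood at percentile 88.1 and those of Vegfa, Egln3 and Hilpda at 99.9. The largest deviation of a vehicle library from the mean of the other vehicle libraries, taken the same way, was 0.27 (Vegfa and Egln3). Because the choice of genes used these values, nothing is read from their position. Library 2 was over 2-fold above the mean of libraries 1 and 3 in 0.674% of tested genes. For library 3 against the mean of libraries 1 and 2 the share was 1.83%. Library 1 is part of the reference in both, so these shares are not measured like the 4.48% of library 1.

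**Figure D3:**
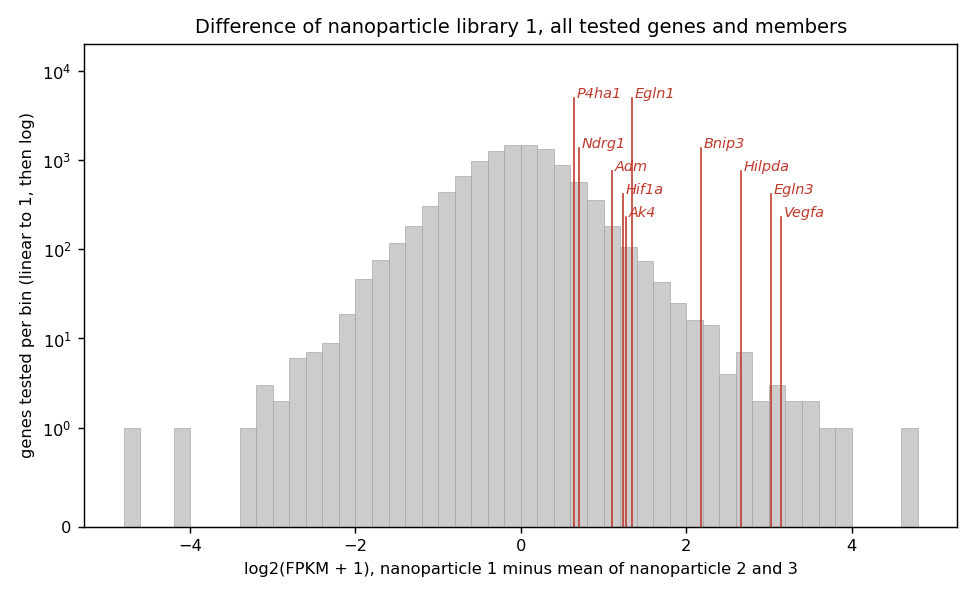
Histogram of the difference in log2(FPKM + 1) between nanoparticle library 1 and the mean of libraries 2 and 3 over 10682 tested genes (grey bars; count axis linear to 1 and logarithmic above), with the 10 genes as red lines whose heights have no meaning. The lines run from 0.64 (P4ha1) to 3.15 (Vegfa), all to the right of the centre, which follows from how the genes were chosen.

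Other genes of the HIF pathway were taken from 7 lists of 61 genes in all, of which 60 were in the table and 50 were tested. Of these, 11 rose, 3 fell and 36 did not pass, with a median log2 change of 0.40. The shares over all tested genes were 17.0% higher and 16.2% lower. Without nanoparticle library 1, 22 rose and 11 fell, with a median of 0.18, against 34.3% and 30.5% over all tested genes. The counts of each list below stand against the same shares. Lox and Nos2, among the 11 and also among the 22, were under 1 FPKM in every vehicle library and had to differ to be tested. With scaling by read totals 8 were called higher and 12 lower, so the balance of directions in the lists rests on the scale. Library 1 was over 2-fold above libraries 2 and 3 in 12 of the 50 genes, Nos2 among them, and over 2-fold below in 0. Over all tested genes these shares were 4.48% and 7.28%. It was the highest of the 6 libraries in 33 of the 50, against 29.2% of all tested genes. These lists are not free of the earlier choice, since other results of these libraries were known.

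Of the regulators of HIF, 0 of 7 tested genes passed in the 6-library fit, with a median of -0.04, while 1 rose and 3 fell without nanoparticle library 1. Arnt, which encodes the constant partner of HIF-1 alpha, was at 4.65, 4.37 and 4.50 FPKM in vehicle and 5.77, 3.46 and 3.47 FPKM in nanoparticle libraries 1 to 3 (limma adjusted p = 0.703). Its log2 change without library 1 was -0.30 (adjusted p = 0.0087). Vhl, which encodes the part of the ubiquitin ligase that recognises hydroxylated HIF-1 alpha, had a log2 change of -0.07 (adjusted p = 0.633). Egln2, the gene of the remaining prolyl hydroxylase, was at 11.8, 13.1 and 12.2 FPKM in vehicle and 12.6, 16.6 and 20.7 FPKM with nanoparticles (log2 change 0.37, adjusted p = 0.161), and here library 1 was the lowest nanoparticle library. Without it the log2 change was 0.55 (adjusted p = 0.0034). The coactivator gene Ep300 had a log2 change of -0.48 (adjusted p = 0.235), and -0.80 (adjusted p = 2.5e-04) without library 1. Epas1, the gene of HIF-2 alpha, and Hif3a were below 0.3 FPKM in every library. Arnt, Vhl, Epas1 and Hif3a are named for their roles, after their values were seen.

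Of 17 genes of glucose uptake and glycolysis, 2 rose (Pgk1 and Gbe1), 2 fell (Pfkfb4 and Aldoc) and 13 did not pass, with a median log2 change of 0.59. Without nanoparticle library 1, 11 rose and 4 fell, and the median was 0.25. Every nanoparticle library lay above every vehicle library in 12 of the 17 genes and below in 3. Over all 10682 tested genes this was so in 2770 and 2795. Gbe1, the glycogen branching enzyme, rose from 6.06, 5.19 and 5.46 FPKM to 15.1, 10.3 and 11.2 FPKM (limma adjusted p = 0.0043). Pfkfb4, one of the enzymes that set the level of fructose 2,6-bisphosphate, fell from 5.23, 5.77 and 5.72 FPKM to 2.70, 3.21 and 3.23 FPKM (adjusted p = 0.0030). Hk2, Gys1 and Pdk1, known HIF1 targets picked here after their values were seen, did not pass in the 6-library fit. Hk2, a hexokinase, was at 20.1 to 20.4 FPKM in vehicle and 74.2, 24.8 and 21.4 FPKM in nanoparticle libraries 1 to 3 (adjusted p = 0.263). Gys1, the glycogen synthase, was at 22.7, 5.27 and 4.64 FPKM in these libraries, against 5.02 to 5.96 FPKM in vehicle (adjusted p = 0.505). Pdk1, whose kinase keeps pyruvate out of mitochondria, was at 4.53 to 4.71 FPKM in vehicle and 4.40, 1.94 and 1.87 FPKM with nanoparticles. Its log2 change was -0.65 (adjusted p = 0.094), and -0.95 (adjusted p = 6.7e-05) without library 1.

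In the list of mitophagy and stress genes, 3 of 6 rose and 0 fell. Ier3, an early response gene, rose from 26.0, 24.0 and 23.2 FPKM to 277, 164 and 149 FPKM (limma adjusted p = 4.1e-04). Higd1a, a mitochondrial protein gene, rose from 10.3, 11.1 and 9.67 FPKM to 14.7, 15.9 and 17.5 FPKM (adjusted p = 0.0076). With scaling by read totals it did not pass (adjusted p = 0.075). Bnip3l, the close relative of Bnip3, was at 39.1 to 42.5 FPKM in vehicle and 45.8, 39.2 and 39.0 FPKM with nanoparticles (log2 change 0.03, adjusted p = 0.852), so the excess of library 1 in Bnip3 had no counterpart of that size in this gene, which was chosen after its values were seen. Of 3 tested collagen and folding genes 1 rose. That was Lox, which like Egln3 and Adm was under 1 FPKM in every vehicle library and was tested through the nanoparticle libraries alone. Lox encodes the collagen cross-linking enzyme lysyl oxidase and rose from 0.188, 0.220 and 0.239 FPKM to 19.0, 24.4 and 16.7 FPKM (log2 change 4.10, adjusted p = 3.2e-05), and library 1 differed from the other nanoparticle libraries by -0.08 on the log2 scale. Plod1, a lysyl hydroxylase of collagen, had a log2 change of -0.36 (adjusted p = 0.069). Ero1l, an oxidase of the endoplasmic reticulum also named after its values were seen, was at 11.8 to 12.9 FPKM in vehicle and 68.1, 12.6 and 15.4 FPKM with nanoparticles (adjusted p = 0.290).

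Among 5 tested angiogenic and secreted genes 2 rose and 0 fell. Mif, a cytokine gene, rose from 139, 139 and 133 FPKM to 347, 293 and 329 FPKM (limma adjusted p = 7.5e-04), and Edn1, which encodes the vessel-narrowing peptide endothelin 1, from 6.66, 7.85 and 7.32 FPKM to 88.6, 48.3 and 39.7 FPKM (adjusted p = 9.0e-04). Of 7 transcription and chromatin genes 1 rose, the circadian repressor gene Bhlhe41, with a log2 change of 0.92 (adjusted p = 0.0035). Its nanoparticle values, 24.4, 31.7 and 33.5 FPKM, were lowest in library 1. Ankrd37, a known HIF1 target, had a log2 change of 0.65 (adjusted p = 0.085). Of 5 genes of pH, iron and nitric oxide, 2 rose and 1 fell. Hmox1, the heme-degrading enzyme, rose from 276, 279 and 281 FPKM to 1113, 808 and 768 FPKM (adjusted p = 0.0010), and the transferrin receptor gene Tfrc fell from 21.2, 20.2 and 20.8 FPKM to 9.74, 9.55 and 8.26 FPKM (adjusted p = 5.8e-04). Nos2, the inducible nitric oxide synthase, is named after its values were seen, and it too was tested through the nanoparticle libraries alone. It rose from 0.0910, 0.137 and 0.0760 FPKM to 530.1, 45.0 and 30.1 FPKM (log2 change 6.37, adjusted p = 0.0045). Its difference between library 1 and the others was 3.81, larger than that of any of the 10 genes. Car9, a carbonic anhydrase gene widely used as a hypoxia marker, was at 2.31 to 3.42 FPKM in vehicle and at 2.18, 2.68 and 2.23 FPKM with nanoparticles (adjusted p = 0.315). It too is named outside the rule by which genes were picked from the lists, and was not a check set in advance.

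**Figure D4:**
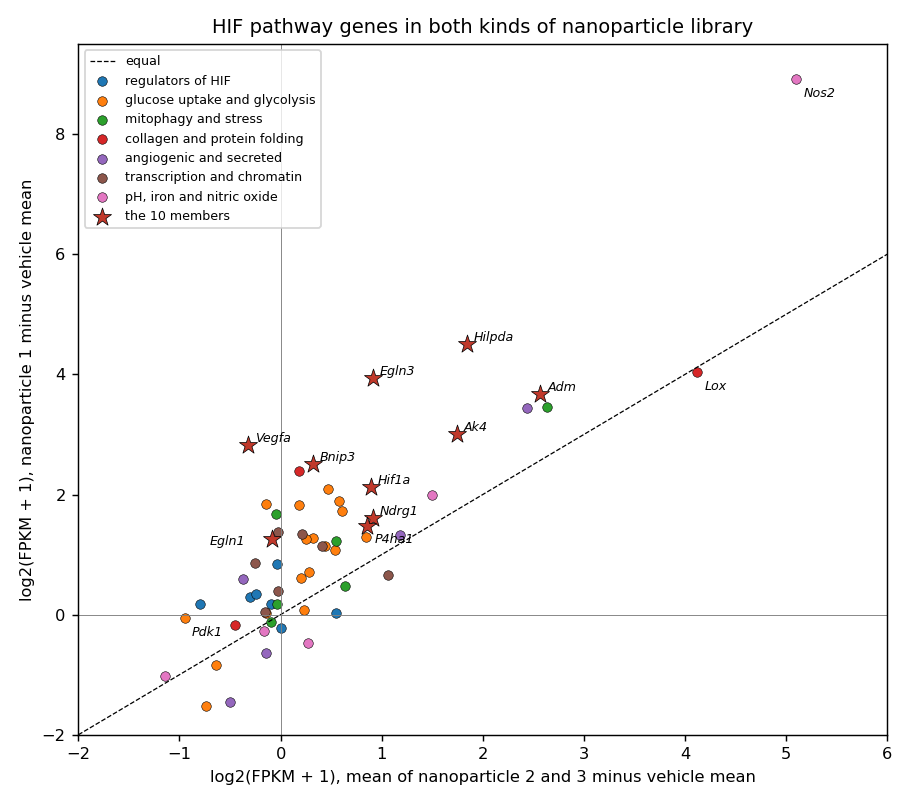
Difference from the vehicle mean in log2(FPKM + 1) for the mean of nanoparticle libraries 2 and 3 (horizontal) and nanoparticle library 1 (vertical), for the 10 genes (red stars) and 50 tested pathway genes (circles, by list); the dashed line marks equal differences. All 10 stars lie above the line; Nos2 differs by 3.81 between the axes, Lox lies near the line, and Vegfa and Egln1 are below 0 on the horizontal axis.

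The mean profile of the 10 genes, each centred on its own mean, was -0.75, -0.81 and -0.75 in vehicle libraries 1 to 3 and 1.92, 0.23 and 0.16 in nanoparticle libraries 1 to 3 (log2 scale). Single genes followed the mean of the other 9 to different degrees over the 6 libraries, from a Pearson r of 0.997 in Hilpda and 0.996 in Hif1a to 0.842 in Egln1 and 0.783 in Vegfa. Of 3710 other tested genes spanning at least 1 on the log2 scale, those most like this profile were Serpine2 (r = 0.9998), Mpeg1 (r = 0.9995), Il33 (r = 0.9993), Trim30b (r = 0.9992) and Kdr (r = 0.9992), and 81 genes exceeded an r of 0.99. These are descriptions over 6 libraries that share the treatment contrast. The profile is highest in nanoparticle library 1, by which the 10 genes were partly chosen. Their likeness to each other therefore follows in part from that choice, and nothing is read from these r values. Serpine2, a secreted protease inhibitor gene, was at 0.743 to 0.769 FPKM in vehicle and 28.5, 4.11 and 3.60 FPKM in nanoparticle libraries 1 to 3. Il33, the gene of an alarm cytokine, was at 2.07 to 2.24 FPKM and at 40.7, 7.83 and 6.65 FPKM. Mpeg1, which encodes the pore-forming protein perforin-2, was at 238 to 244 FPKM and at 733, 360.5 and 343 FPKM. Kdr, which encodes a receptor of the Vegfa product, was at 0.486 to 0.594 FPKM and at 4.25, 1.45 and 1.33 FPKM, and Trim30b at 0.280 to 0.373 FPKM and at 5.64, 1.34 and 1.23 FPKM.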

How the data were processed

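RNA was sequenced from 3 vehicle and 3 nanoparticle samples, grouped by their titles, with 1 µg of total RNA and a NEBNext Ultra II RNA kit each, per the labels' protocols. The submitters' processing notes name CASAVA, STAR 2.5, HTSeq, edgeR 3.16.5 and DESeq2, and the builds hg19 and mm10, without roles. The authors deposited 2 tables of 23398 genes whose 140388 values are identical. Their unit is named nowhere and was taken as FPKM deposited by the authors: with merged exon lengths of GENCODE M21 (GRCm38), found for 23388 genes, the share of nonzero values that came out as whole reads (within 0.01) was 95.8% to 96.1% by library, including every value of the 10 genes. Another length was found for 277 of 290 abundant genes where the annotated one failed. The library scales matched median-of-ratios size factors within 0.0107%, so these values cannot show a change common to most genes. How reads of overlapping or similar genes were counted, and the strand, are not given in the sources used here.

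The 10682 genes reaching 1 FPKM in 3 or more libraries were tested on log2(FPKM + 1) with limma 3.58.1 in R 4.3.3, with group as the single term, a mean-variance trend and Benjamini-Hochberg adjustment over all tested genes at 0.05. The fit was also run on simulated data in which no library stood apart, so that run does not cover the spread of the nanoparticle libraries here. The 10 genes, the pathway lists and the markers were chosen with earlier results of these data known. Named by rule are the 10 genes, the 2 genes of each pathway list with the smallest p, and the 5 genes most like the mean profile. Further genes of the lists were named outside this rule, several of them after their values were seen. Alternatives were a pseudocount of 0.1, no filter, no trend, library weights, scaling by read totals, the replicate number as a block, each library left out and, chosen after the data were seen, limma-voom on recovered reads. Promoter sequences are from RefSeq (GRCm38.p6). Python 3.11.15, numpy 2.4.6, pandas 2.3.3, scipy 1.17.1 and matplotlib 3.10.9 were used.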

Additional observations from a re-analysis of the deposited data

How the results depend on the processing

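Of the 10 genes, 6 passed the threshold with a pseudocount of 0.1, without the trend and with limma-voom on recovered reads, 5 with scaling by read totals, 4 with no filter and 8 with library weights. Leaving out 1 library gave 4 to 9. The weights were estimated gene by gene, and they gave nanoparticle library 1 a weight of 0.0438. Vegfa reversed to -0.32 without nanoparticle library 1 and to -0.19 with library weights, and Egln1 to -0.08 in both. With 1 library left out, Vegfa ranged from -0.32 to 1.29 and Egln1 from -0.08 to 0.60. By construction, library 1 has no part in the fit without it and little part in the fit with library weights. The other fits with 1 library left out keep it in full.

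Over all genes, the 3550 calls became 7237 with library weights and 2141 to 6923 with 1 library left out, the highest without nanoparticle library 1. Leaving out vehicle library 1, 2 or 3 gave 2226, 2188 and 2141. The 14 pathway genes past the threshold became 34 with library weights and 11 to 33 with 1 library left out. Scaling by read totals changed 1817 higher and 1733 lower genes to 1097 and 3687.

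The libraries share replicate numbers. The deviations of same-numbered libraries correlated at 0.0654, 0.113 and -0.0577, and those of other-numbered libraries at -0.129 to 0.108. These values cannot settle whether the numbers pair the libraries, because nanoparticle library 1 makes up most of the spread in its group. With the replicate number as a block, 2785 genes, 6 of the 10 genes and 13 pathway genes passed. Depth limits Adm in vehicle (1 or 2 reads a library) and Egln3 in vehicle (14 to 33 reads).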
